A study of Mus musculus with 14 samples.

Results

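The genes described are 10 components of the Notch pathway, 4 ligands (Jag1, Jag2, Dll1, Dll4), the receptors Notch1 and Notch4, the glycosyltransferases Mfng and Lfng, and the target genes Hes1 and Hey1. They were taken by symbol, without regard to their values, as all probe sets of these genes, which gave 10 of the 18193 genes with a named probe set and 18 of the 45037 probe sets on the array that are not controls, and 15 of these were among the 27022 probe sets bright enough to be tested. RNA of 14 mouse samples, 1 per Affymetrix mouse genome array, was measured in liver sinusoidal endothelial cells (LSEC, 3 Cre+ and 3 control), lung endothelial cells (lung EC, 2 Cre+ and 2 control) and thymus cells (2 Cre+ and 2 control). All 14 samples carried floxed (L/L) alleles written Fk1, Fk2 and Afx, older names of Foxo1, Foxo3 and Foxo4, on the FVBn background. The Cre+ samples also carried MxCre, and the controls lacked it. MxCre is a Cre recombinase under the Mx1 promoter, which interferon turns on in many cell types, so it is not confined to endothelium. Neither the induction, the age of the mice nor the way the cells were isolated is given in the sources used here. Nor is it stated whether replicates came from separate animals, so p-values measure only the spread between these samples, which may be technical.

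Notch receptors are activated by ligands on a neighbouring cell, cut in the membrane, and their freed intracellular part enters the nucleus, where it joins the DNA-binding protein RBPJ and switches on genes such as Hes1 and Hey1. Fringe enzymes such as Mfng and Lfng add sugars to the receptors and so change how they respond to Delta-like and to Jagged ligands. In vessels the pathway is known for arterial identity and for the choice of sprouting tip cells, in which Dll4 is the ligand, and in the thymus for the commitment of progenitors to the T cell lineage, in which Dll4 on epithelium meets Notch1 on progenitors.

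The start regions of Dll4 and Jag1 are shown because these are the ligands whose levels differed with MxCre. Each runs 300 bases, 250 before the annotated start in lower case and 50 after it in capitals, 5′ to 3′ on the gene's strand, from RefSeq on GRCm38.p6. That of Dll4 lies at chr2:119325534-119325833 on the plus strand and that of Jag1 at chr2:137116471-137116770 on the minus strand.
Dll4: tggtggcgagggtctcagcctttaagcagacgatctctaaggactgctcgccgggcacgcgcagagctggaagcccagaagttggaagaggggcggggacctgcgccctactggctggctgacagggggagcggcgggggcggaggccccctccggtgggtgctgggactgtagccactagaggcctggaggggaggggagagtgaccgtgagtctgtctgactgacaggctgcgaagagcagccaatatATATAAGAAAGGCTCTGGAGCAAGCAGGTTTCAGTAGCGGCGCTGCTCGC
Jag1: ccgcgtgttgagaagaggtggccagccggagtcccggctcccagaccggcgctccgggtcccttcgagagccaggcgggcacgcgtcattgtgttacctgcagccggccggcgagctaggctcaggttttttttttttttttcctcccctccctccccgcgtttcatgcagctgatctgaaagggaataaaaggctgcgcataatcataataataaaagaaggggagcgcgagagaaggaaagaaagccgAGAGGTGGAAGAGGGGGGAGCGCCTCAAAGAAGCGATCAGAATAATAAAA

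RefSeq start regions were at hand for 7 of the 10 genes, in 8 windows, and those of Hes1, Hey1 and Mfng were not used here. Neither the forkhead site GTAAACA nor its core TAAACA, which lies within it, occurred on either strand of the 8 windows. Over all 32851 windows of the same length, 3.65% held the site and 13.4% held the core. The RBPJ core TGGGAA and the longer RBPJ site CGTGGGAA, which contains it, were found in 1 of the 8 windows, that of Lfng (chr5:140607091-140607390, plus strand), against 25.6% and 0.734% of all windows. The stretches of that window with the matches are shown in 30 bases each, with the core or its reverse complement in capitals. The first match begins at position -135 from the annotated start, on the minus strand. The second begins at position -108 on the plus strand and is the end of the longer site.
Lfng upstream match: ccagctgggtggTTCCCAgccccttgtccg
Lfng downstream match: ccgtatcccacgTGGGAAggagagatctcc
A match or its absence describes these letters alone. The Dll4 window had 63.7% G and C, the Jag1 window 55.7% and the Lfng window 66.7%, against a median of 52.7% over all windows.

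The levels below are quantile-normalized log2 values, and a difference of 1 is a doubling. A probe set was tested where its highest tissue mean reached 6.87, the 40th percentile, and levels under this limit are dim. Levels of different probe sets are not set against each other. Between genotypes of a tissue the arrays correlated at 0.955 to 0.984 over the 27022 probe sets tested, within a group at 0.968 to 0.987, and no member value stood at 0. Of the floxed genes, each by its probe set with the deepest fall in LSEC, Foxo1 (1416983_s_at) lay at 4.36 to 5.44 in Cre+ LSEC against 8.00 to 8.58 in control LSEC, at 6.85 to 7.15 in Cre+ lung EC against 8.21 to 8.36 in control lung EC, and at 6.24 to 6.62 in Cre+ thymus against 8.08 to 8.37 in control thymus. Foxo4 (1456753_at) lay at 4.69 to 5.38 in Cre+ LSEC against 6.94 to 7.37 in control LSEC, at 6.02 to 6.72 in Cre+ lung EC against 7.46 to 7.49 in control lung EC, and at 4.73 to 4.97 in Cre+ thymus against 8.08 to 8.09 in control thymus. Foxo3 (1434831_a_at) fell by 0.58 in Cre+ LSEC (limma with Benjamini-Hochberg adjustment, adjusted p = 0.0097) and differed by 0.30 in lung EC and 0.46 in thymus (adjusted p = 1 and 0.184). A further Foxo3 probe set, 1434832_at, fell by 0.53 in Cre+ LSEC (limma adjusted p = 0.00474) and rose by 0.68 in Cre+ thymus (adjusted p = 0.0215), with a difference of 0.10 in lung EC (adjusted p = 1). In lung EC neither Foxo1 nor Foxo4 passed (adjusted p = 0.44 and 0.344). Which of these probes lie in deleted exons is not known here.

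Markers of the labelled tissues were present. The LSEC gene Stab2 was at 9.85 to 12.12 in LSEC and at 5.94 to 6.31 in lung EC, and the thymocyte list averaged 11.20 to 11.38 on the thymus arrays. The endothelial gene Cdh5 lay at 12.11 to 12.36 in LSEC, 10.44 to 11.19 in lung EC and 6.05 to 6.74 in thymus. The lung EC samples also held lung epithelial RNA, with Sftpc, a surfactant gene of alveolar cells, at 11.97 to 12.59, and mesenchymal RNA, with a list mean of 9.77 to 9.95 against 6.89 to 7.50 in LSEC. Macrophage RNA was present in LSEC, with a list mean of 8.76 to 10.10 in Cre+ and 9.14 to 10.30 in control LSEC. Of 10 macrophage markers tested 1 passed as lower in Cre+ LSEC (median -0.42), and none passed in lung EC (median 0.36). Of 129 marker genes read, 1 (Gja5) had values at 0, on 2 arrays. In such bulk samples fewer cells of a type and less RNA per cell cannot be told apart.

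In LSEC the ligand Jag1 rose with MxCre while the ligand Dll4 and the fringe gene Mfng fell, and the receptor and target genes showed no difference that passed the test. By limma with Benjamini-Hochberg adjustment over all probe sets, 2 of the 15 tested probe sets were higher, both of Jag1, and 2 were lower, 1 of Dll4 and that of Mfng. Over all 27022 probe sets, 5.23% passed, 2.62% higher and 2.61% lower. The median difference was 0.01 over the 15 and 0.01 over all. Unadjusted p was under 0.05 for 7 of the 15 and 19.1% of all, and the genotypes did not overlap in 7, against 22.8% of all probe sets. The plot of levels on each array shows these values.

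**Figure D1:**
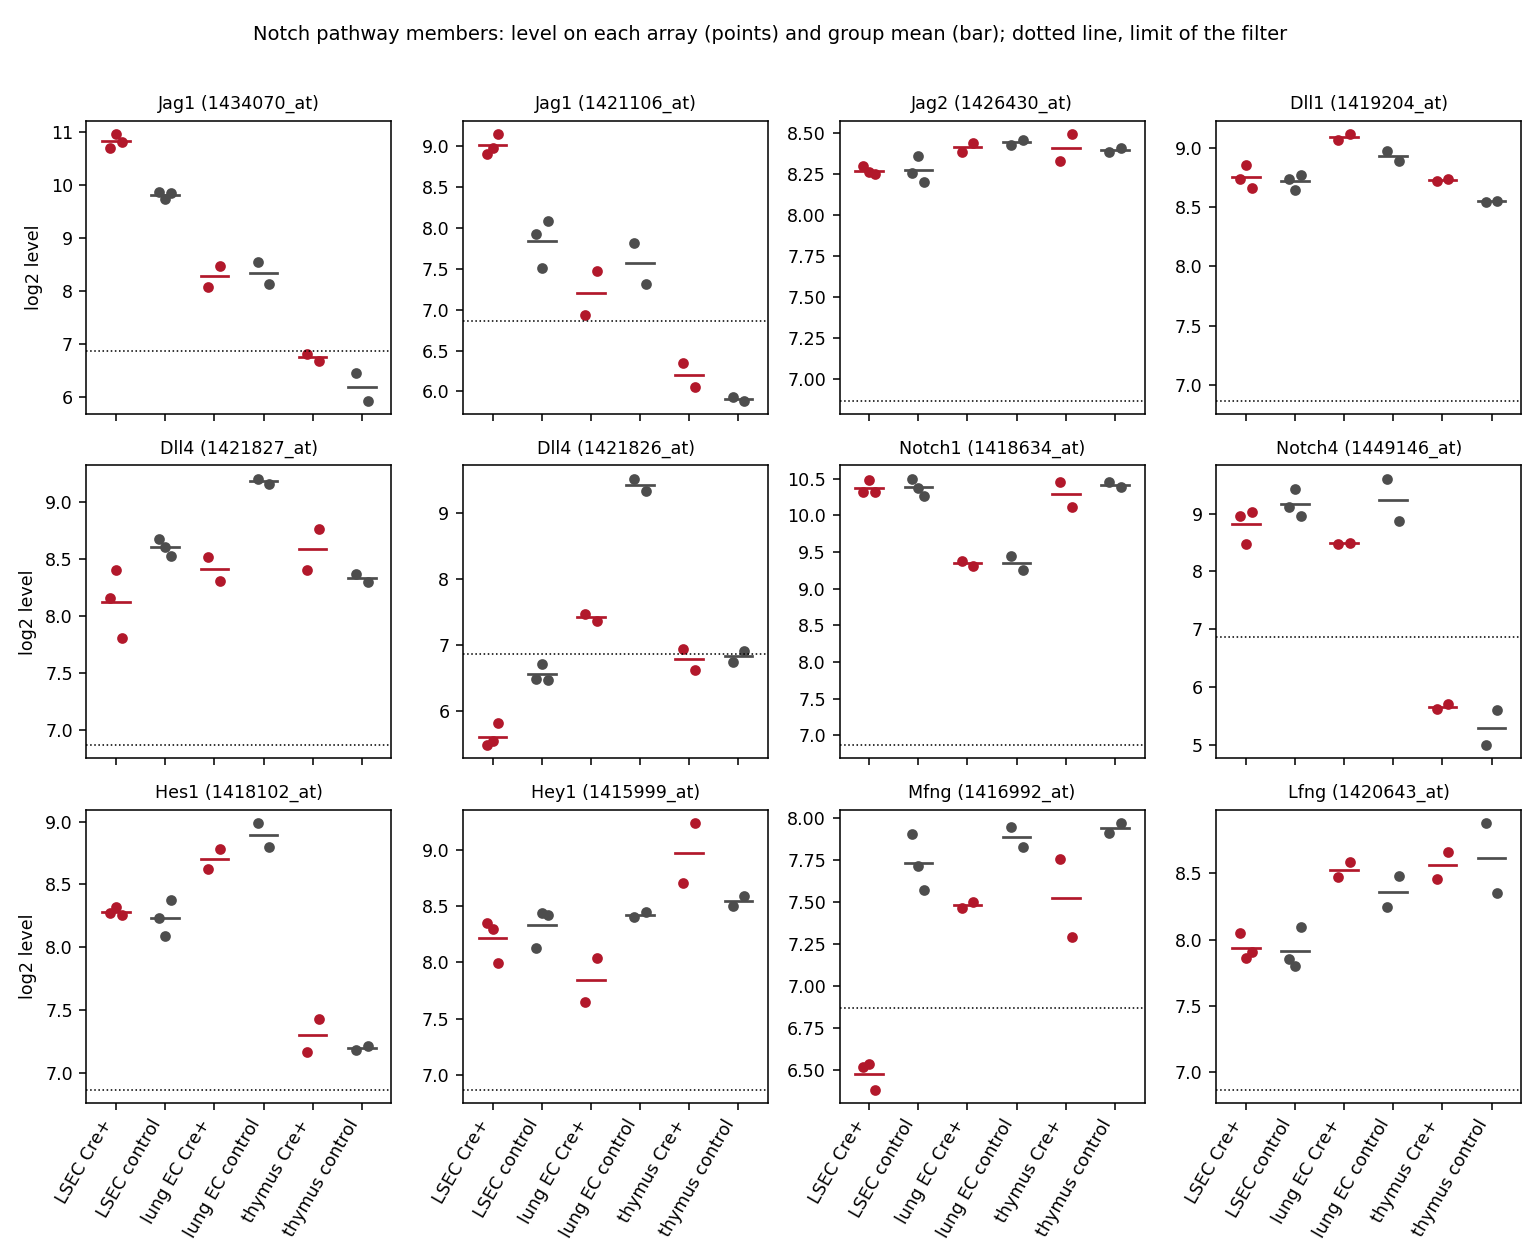
Log2 level on each array (points) and group mean (bars) for 12 of the 18 probe sets, with Cre+ in red and control in grey for LSEC, lung EC and thymus; each panel has its own log2 axis and the dotted line marks the limit of 6.87. Jag1 (1434070_at) lies at 10.70 to 10.97 in Cre+ LSEC, above all 3 control LSEC values, and Dll4 (1421826_at) at 7.36 to 7.47 in Cre+ lung EC, under both control lung EC values.

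Jag1 encodes a Jagged ligand of endothelium and many epithelia. Its probe set 1434070_at read 10.70, 10.97 and 10.82 in Cre+ LSEC, against 9.87, 9.74 and 9.85 in control LSEC. All 3 Cre+ values lay above all 3 control values, and the means were 10.83 ± 0.13 in Cre+ and 9.82 ± 0.07 in control LSEC (SD, n = 3 each). The difference was 1.01 (SE 0.16, 95% interval 0.66 to 1.36, a 2.01-fold rise, limma adjusted p = 0.00442).

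The Jag1 probe set 1421106_at read 8.91, 8.98 and 9.15 in Cre+ LSEC, against 7.93, 7.51 and 8.09 in control LSEC. Again no control value reached the Cre+ values, and the difference of 1.17 (SE 0.19, 95% interval 0.75 to 1.59) was a 2.25-fold rise (limma adjusted p = 0.00509). The third probe set of the gene, 1421105_at, was nearly flat over the study, between 7.09 and 7.71 on all 14 arrays, although its LSEC groups too did not overlap. It differed by 0.30 in LSEC (limma adjusted p = 0.138), so the 3 probe sets of Jag1 disagree in size and in the call.

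Jag2, the other Jagged ligand, had 2 probe sets. The brighter, 1426430_at, ranged over 8.25 to 8.30 in Cre+ LSEC and 8.20 to 8.36 in control LSEC, with a difference whose 95% interval ran between -0.17 and 0.16. The dimmer, 1426431_at, read 5.70, 5.45 and 5.52 in Cre+ LSEC, against 5.14, 4.00 and 5.00 in control LSEC, all under the limit. It differed by 0.84 (limma adjusted p = 0.0673) with no overlap, and by 0.49 without control replicate 2, the lowest value, when it passed (adjusted p = 0.0438). It also passed without control replicate 1 (1.06, adjusted p = 0.034).

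Dll4, the Delta-like ligand of endothelium, was read by 2 probe sets that pointed the same way in LSEC. Probe set 1421826_at read 5.48, 5.54 and 5.81 in Cre+ LSEC, against 6.49, 6.71 and 6.47 in control LSEC. The groups did not overlap, and the level fell by 0.94 (SE 0.12, 1.92-fold, limma adjusted p = 0.00137), with every LSEC value under the limit of 6.87. Probe set 1421827_at, well above it, read 8.16, 8.40 and 7.81 in Cre+ LSEC, against 8.67, 8.60 and 8.53 in control LSEC. Each Cre+ value was lower than each control value, and the difference of -0.48 (SE 0.14) did not pass (limma adjusted p = 0.0878). Without Cre+ replicate 2 it was -0.62 and passed (adjusted p = 0.0326).

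Mfng, whose enzyme elongates fucose on Notch receptors, had the smallest p of the 15 probe sets in LSEC, and the 66th smallest of all. It read 6.52, 6.53 and 6.38 in Cre+ LSEC, against 7.90, 7.71 and 7.57 in control LSEC. Every Cre+ value was under the limit and every control value above it. The level fell by 1.25 (SE 0.12, 95% interval -1.52 to -0.98, a 2.38-fold fall, limma adjusted p = 0.00024). Lfng, which encodes the related enzyme Lunatic fringe, lay at 7.86 to 8.05 in Cre+ LSEC and 7.80 to 8.09 in control LSEC (1420643_at), and its difference had a 95% interval of -0.29 to 0.33. Its second probe set, 1449943_at, stayed under the limit in all groups and was not tested.

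No receptor or target passed the test in LSEC. Notch1, the receptor shared by endothelium and T cell progenitors, was at 10.32 to 10.49 in Cre+ LSEC and 10.27 to 10.50 in control LSEC (1418634_at), with a 95% interval of -0.24 to 0.23 for the difference. Its second probe set, 1418633_at, gave -0.22 to 0.25. Notch4, a receptor mostly of endothelium, lay at 8.47 to 9.02 in Cre+ LSEC and 8.96 to 9.43 in control LSEC (1449146_at). It differed by -0.35 (SE 0.22, 95% interval -0.84 to 0.14, limma adjusted p = 0.44). Its 2 dimmer probe sets, 1456263_at and 1436901_at, were not tested and differed by -0.26 and -0.41, each with no overlap between the genotypes.

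Hes1 and Hey1, transcriptional repressors switched on by Notch, overlapped between the genotypes of LSEC. Hes1 lay at 8.26 to 8.32 in Cre+ LSEC and 8.09 to 8.37 in control LSEC, with a difference of 0.05 (95% interval -0.17 to 0.28). Hey1 lay at 7.99 to 8.35 in Cre+ LSEC and 8.13 to 8.44 in control LSEC, with a difference of -0.12 (95% interval -0.47 to 0.23). Dll1, a further Delta-like ligand, differed by 0.03 (95% interval -0.13 to 0.20). These intervals leave out changes of the size seen for Jag1 and Mfng.

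**Figure D2:**
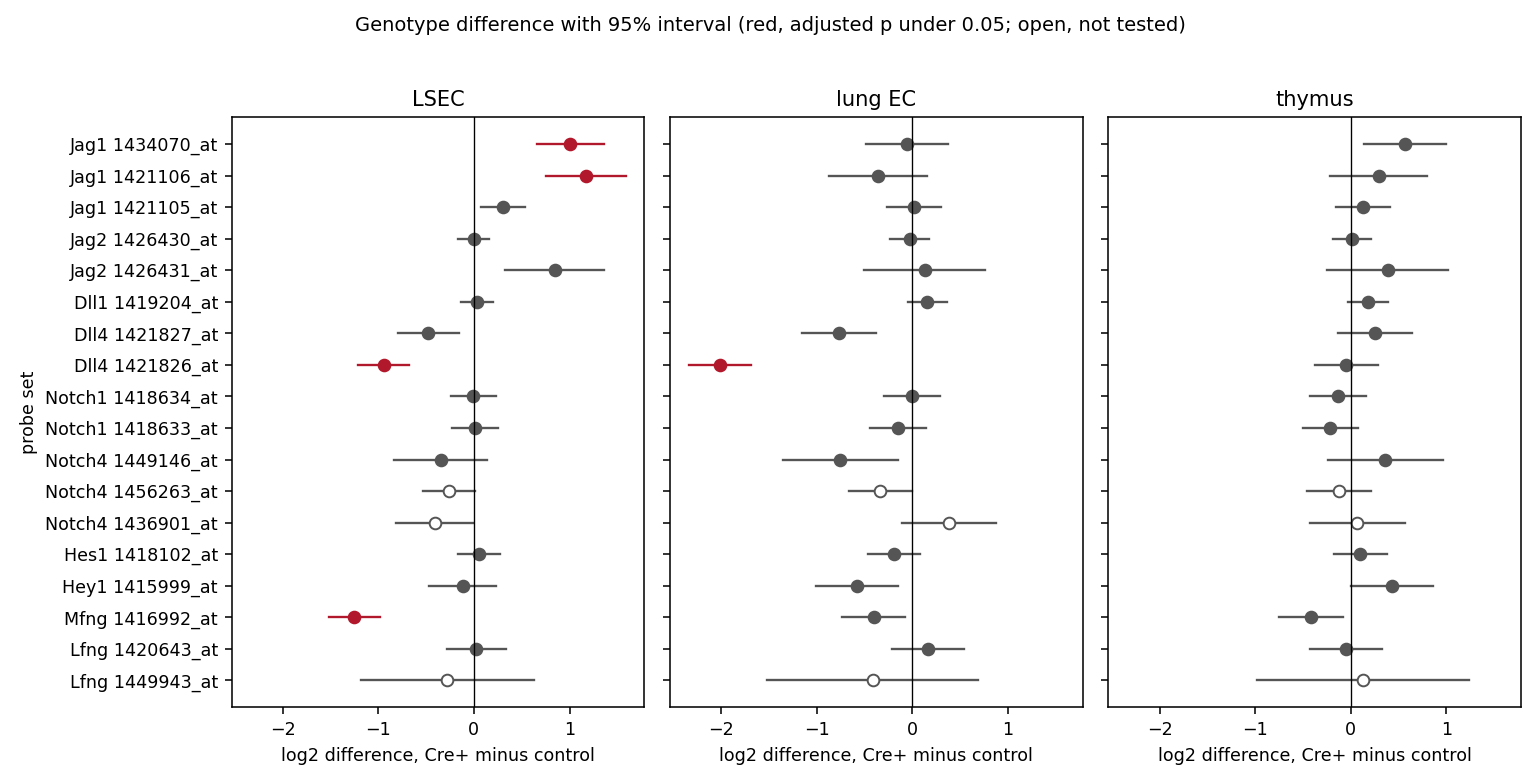
Log2 difference, Cre+ minus control, of each of the 18 probe sets in LSEC, lung EC and thymus, with 95% intervals from limma; red marks an adjusted p under 0.05 and open points were not tested. In LSEC 4 probe sets pass, in lung EC only Dll4 1421826_at at -2.01, and in thymus none.

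Markers of vascular beds differed in the same LSEC samples. Of 16 tested LSEC markers 11 were lower and none higher in Cre+ LSEC (median -1.31), namely Lyve1 (-3.45), Dnase1l3 (-2.50), Clec1b, Fcgr2b, Rspo3, Clec4g, Bmp2, Mrc1, Stab1, Wnt2 and Maf (-0.60), and the summed level of the list was 13.00 to 13.71 in Cre+ LSEC against 14.64 to 15.07 in control LSEC. Of 11 arterial and large vessel markers 4 were higher and none lower (median 0.79), with summed levels of 12.56 to 12.71 in Cre+ and 11.94 to 12.10 in control LSEC, namely Vwf, the von Willebrand factor gene (3.27), Nos3, Sema3g and Mecom. Of 14 pan-endothelial markers 12 had a negative difference (median of the list -0.21), and 3 passed as lower, Cldn5, Robo4 and Sox18. Their summed levels, over all 14, were 14.17 to 14.45 in Cre+ and 14.47 to 14.78 in control LSEC. Jag1, Dll4 and Mfng moved beside these lists, and the part of the lists in their differences was not tested. Bile duct cells are a known source of Jag1. No cholangiocyte marker passed among 4 tested, with summed levels of 9.92 to 10.78 in Cre+ and 9.98 to 10.39 in control LSEC. The part of this list in the Jag1 difference was not tested either.

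In lung EC Dll4 alone among the members passed the test, and it fell. It gave 1 of the 15 tested probe sets, lower in Cre+. Of all probe sets 0.0333% passed, 9 in number, and 0.0259% were lower. Unadjusted p was under 0.05 for 5 of the 15 and 4.73% of all, and the genotypes did not overlap in 8, against 39.3% of all probe sets. The median difference was -0.15 over the 15 and 0.01 over all.

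Dll4 1421826_at read 7.47 and 7.36 in Cre+ lung EC, against 9.52 and 9.33 in control lung EC. Both Cre+ values lay under both control values. The level fell by 2.01 (SE 0.15, 95% interval -2.34 to -1.68, a 4.03-fold fall, limma adjusted p = 0.000454), the second smallest p and the 11th deepest fall of 27022 probe sets. The call was lost in 3 of 12 alternative settings (limma adjusted p up to 0.0819), among them the fit of the lung EC arrays alone (adjusted p = 0.0564).

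The other Dll4 probe set, 1421827_at, read 8.52 and 8.30 in Cre+ lung EC, against 9.20 and 9.15 in control lung EC. It too did not overlap, with a difference of -0.77 (SE 0.18, 95% interval -1.16 to -0.38), and did not pass (limma adjusted p = 0.355). Both probe sets thus gave lower values in Cre+ lung EC, in unequal size.

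Notch4 and Hey1 had the next largest differences in lung EC, and neither passed. Notch4 1449146_at read 8.48 and 8.50 in Cre+ lung EC, against 9.61 and 8.87 in control lung EC, a difference of -0.75 (SE 0.27, limma adjusted p = 0.932). The dimmer Notch4 probe sets were not tested and differed by -0.33 (1456263_at) and 0.38 (1436901_at). Hey1 read 7.65 and 8.04 in Cre+ lung EC, against 8.40 and 8.45 in control lung EC, a difference of -0.58 (SE 0.20, limma adjusted p = 0.84). Mfng read 7.46 and 7.50 in Cre+ lung EC, against 7.95 and 7.83 in control lung EC, a difference of -0.41 (SE 0.15, limma adjusted p = 0.963). For Notch4 1449146_at, Hey1 and Mfng the Cre+ values were the lower ones on both arrays.

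Jag1 showed no rise in lung EC. Its probe set 1434070_at read 8.08 and 8.48 in Cre+ lung EC, against 8.55 and 8.13 in control lung EC, a difference of -0.06 (95% interval -0.49 to 0.37), and 1421106_at differed by -0.36 (95% interval -0.87 to 0.15). Notch1 differed by -0.01 and -0.15 on its 2 probe sets, Hes1 by -0.19, Dll1 by 0.16 and Lfng by 0.16 (1420643_at), each with a limma adjusted p of 1.

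None of the 14 pan-endothelial markers passed in lung EC, but 12 were lower in Cre+ (median -0.36), with summed levels of 13.32 to 13.42 in Cre+ and 13.65 to 13.90 in control lung EC. The lowest of them was Sox18 at -1.08. The difference of Dll4 1421826_at was larger than that of any of the 14, while that of Dll4 1421827_at, -0.77, lay within their range. The summed mesenchymal list was 14.72 to 14.78 in Cre+ and 14.80 to 14.94 in control lung EC, and the lung epithelial list 13.54 to 14.06 in Cre+ and 13.65 to 13.70 in control. The part of these lists in the Dll4 difference was not tested.

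**Figure D3:**
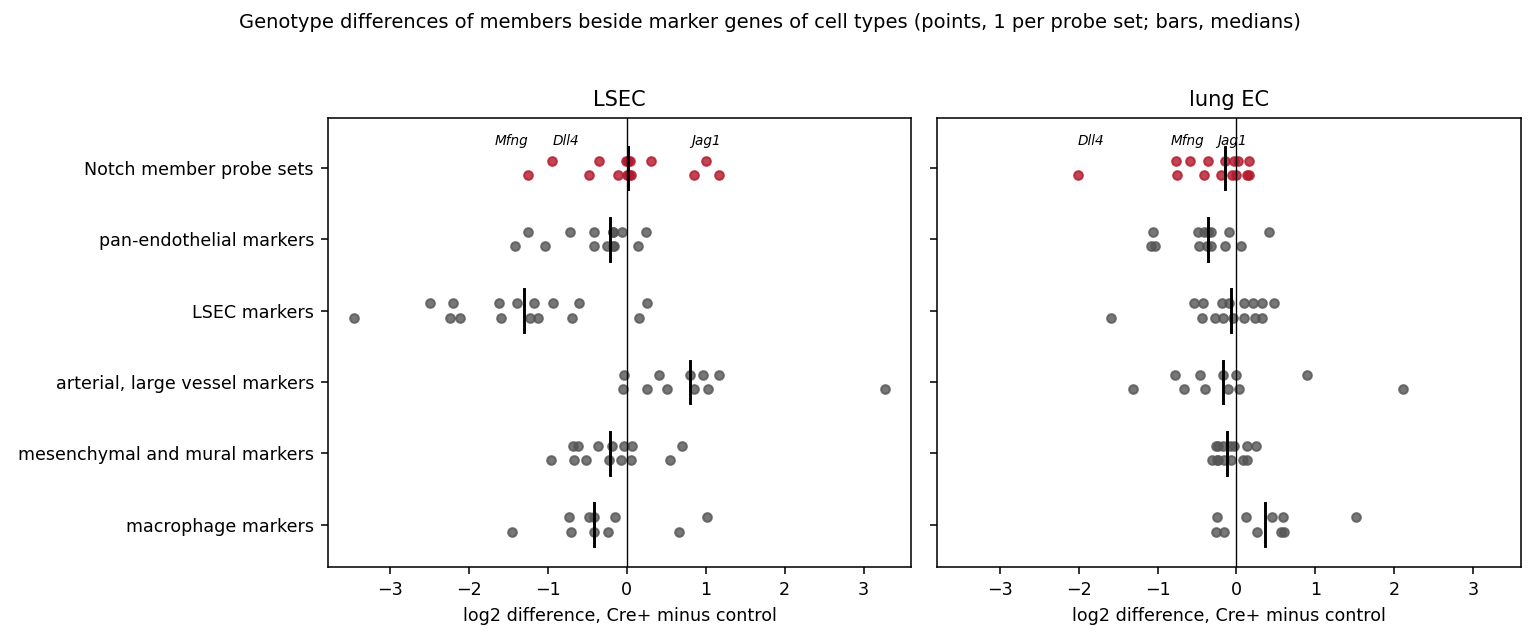
Log2 difference, Cre+ minus control, of the 15 tested member probe sets (red) and of the tested genes of 5 marker lists (grey) in LSEC and lung EC; points are probe sets and vertical bars medians. In LSEC the LSEC markers centre at -1.31 and the arterial and large vessel markers at 0.79, and in lung EC Dll4 lies at -2.01, outside the range of the pan-endothelial markers.

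In thymus none of the 15 probe sets passed, and 0.448% of all probe sets passed. By limma 2 of the 15 had an unadjusted p under 0.05, against 11.5% of all. The genotypes did not overlap in 8 of the 15, against 42.4% of all, and the median difference was 0.13 over the 15 and 0.01 over all. Jag1 1434070_at read 6.81 and 6.69 in Cre+ thymus, against 6.44 and 5.93 in control thymus, all under the limit, a difference of 0.56 (SE 0.19, limma adjusted p = 0.284). Mfng read 7.76 and 7.29 in Cre+ thymus, against 7.91 and 7.97 in control thymus, a difference of -0.42 (SE 0.15, limma adjusted p = 0.31). Hey1 read 8.71 and 9.24 in Cre+ thymus, against 8.50 and 8.59 in control thymus, a difference of 0.43 (SE 0.20, limma adjusted p = 0.438).

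Dll4, which thymic epithelium uses to instruct progenitors, differed by 0.25 on 1421827_at and -0.05 on 1421826_at in thymus, and their 95% intervals ran from -0.14 to 0.64 and from -0.38 to 0.28. Notch1 differed by -0.13 and -0.21 on its 2 probe sets. In the same samples 1 of 14 mesenchymal markers passed, Col3a1 (0.75), with summed levels of 13.03 to 13.15 in Cre+ and 12.71 to 12.81 in control thymus. No thymic epithelial marker passed among 9 tested, with summed levels of 14.14 to 14.30 in Cre+ and 13.83 to 14.08 in control thymus. Of the 14 pan-endothelial markers 1 was higher, Flt1 (1.00), with summed levels of 10.34 to 10.49 in Cre+ and 10.30 to 10.42 in control thymus. No macrophage marker passed among 10 tested, with summed levels of 12.86 to 13.29 in Cre+ and 12.69 to 12.75 in control thymus. The part of these lists in the Hey1 and Jag1 values was not tested.

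The genotype differences were then compared between tissues in the same limma fit. These comparisons share arrays with those above and with each other. The brighter Dll4 probe set, 1421827_at, passed in none of them. It differed by -1.02 for lung EC against thymus and by -0.73 for LSEC against thymus (limma adjusted p = 0.338 and 0.143). Dll4 1421826_at fell more in lung EC than in thymus (-1.96, SE 0.21, limma adjusted p = 0.00994). That call was lost in 5 of 16 alternative settings (adjusted p up to 0.273), among them the fit of only the arrays compared (adjusted p = 0.0817) and those without lung EC control replicate 1 (0.0706) or thymus control replicate 1 (0.057). It was the only 1 of the 15 to pass, against 0.0222% of all probe sets, 0.0185% with a negative difference. In LSEC against thymus it differed by -0.90 (SE 0.19, adjusted p = 0.0462), again the only 1 of the 15, with 1.65% of all passing and 0.947% with a negative difference. Leaving out 1 array moved this last value between -0.74 and -1.05, and it passed without LSEC Cre+ replicate 3 and in no other of the 10 such fits.

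Between LSEC and lung EC none of the 15 passed, and 0.326% of all probe sets passed. By limma 4 of the 15 had an unadjusted p under 0.05, against 9.97% of all. The difference of Dll4 1421826_at was 1.07 (SE 0.19, limma adjusted p = 0.0505) and did not pass. It passed without LSEC Cre+ replicate 1 (limma adjusted p = 0.0475). The difference of Dll4 1421827_at was 0.29 and did not pass (limma adjusted p = 0.73). For Jag1 the LSEC effect exceeded that in lung EC by 1.53 on 1421106_at (SE 0.30, limma adjusted p = 0.0606) and by 1.07 on 1434070_at (SE 0.25, adjusted p = 0.122). The LSEC effect exceeded that in thymus by 0.88 and 0.44 on these probe sets (limma adjusted p = 0.18 and 0.422). For Mfng it was lower by -0.85 against lung EC and by -0.84 against thymus (SE 0.19 each, adjusted p = 0.112 and 0.0587). None of these Jag1 and Mfng differences between tissues passed.

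The controls gave the level of each gene without MxCre in each tissue. Of the 15 probe sets 3 were higher and 5 lower in control LSEC than in control lung EC, where 43.3% of all probe sets passed, 23.3% higher and 20.0% lower. In control thymus 2 were higher and 4 lower than in control LSEC (66.1% of all passed, 32.6% higher and 33.5% lower), and 2 were higher and 7 lower than in control lung EC (62.2% of all passed, 32.1% higher and 30.2% lower). The median differences of the 15 were -0.17, 0.04 and -0.19, and those of all probe sets 0.06, -0.02 and 0.03. Since the samples differ in their cell types, these are levels of samples and not of 1 cell type.

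**Figure D4:**
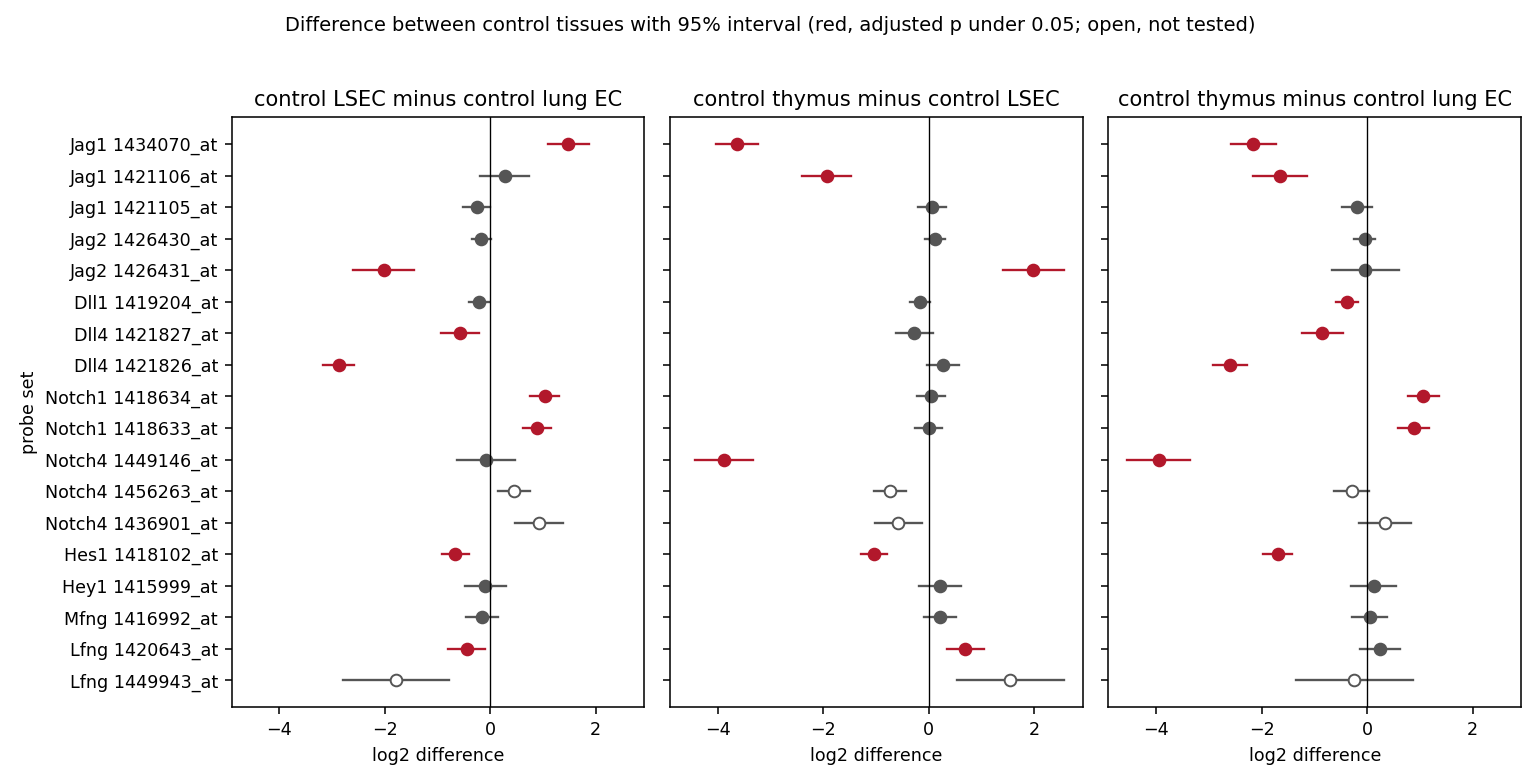
Log2 difference of each of the 18 probe sets between control tissues (control LSEC minus control lung EC, control thymus minus control LSEC, control thymus minus control lung EC), with 95% intervals from limma; red marks an adjusted p under 0.05 and open points were not tested. Notch4 1449146_at lies near -3.9 in both thymus panels, and Dll4 1421826_at at -2.87 in control LSEC against control lung EC. Dll4 1421827_at lies at -0.58 there.

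Among the ligands, Jag1 1434070_at stood highest in LSEC, then lung EC, then thymus. Its control means were 9.82 ± 0.07 in LSEC (n = 3), 8.34 ± 0.30 in lung EC and 6.19 ± 0.36 in thymus (SD, n = 2 each), and all 3 steps passed. The differences were 1.48 for control LSEC over control lung EC, -3.63 for control thymus against control LSEC and -2.15 for control thymus against control lung EC, with limma adjusted p of 6.97e-05, 1.25e-08 and 2.21e-06. On 1421106_at control LSEC and control lung EC differed by 0.28 and did not pass (adjusted p = 0.317). On 1421105_at the control means were 7.24 in LSEC, 7.49 in lung EC and 7.30 in thymus, with no difference that passed (-0.25 for control LSEC against control lung EC, adjusted p = 0.104).

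Dll4 ran in another order, with control lung EC highest on both probe sets. Probe set 1421826_at had control means of 6.55 ± 0.13 in LSEC, 9.43 ± 0.13 in lung EC and 6.83 ± 0.12 in thymus, and control LSEC was lower than control lung EC (-2.87, 7.32-fold, limma adjusted p = 1.47e-07). Control thymus and control LSEC did not differ beyond the test on it (0.27, adjusted p = 0.0979). With MxCre the lung EC level on this probe set, 7.42 ± 0.07, stayed above the dim level of either LSEC group. On 1421827_at the control means were 8.60 ± 0.07, 9.18 ± 0.03 and 8.33 ± 0.05 in LSEC, lung EC and thymus. Control LSEC was lower than control lung EC on it by -0.58 (limma adjusted p = 0.0137), a call lost in 2 of 12 alternative settings. The Cre+ lung EC mean on 1421827_at, 8.41 ± 0.15, lay under that of control LSEC and above that of Cre+ LSEC, 8.12 ± 0.30. Cre+ lung EC was not tested against LSEC groups on either probe set.

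Jag2 1426431_at was lower in control LSEC than in control lung EC (-2.02, limma adjusted p = 0.000125). It was 1.98 higher in control thymus than in control LSEC (adjusted p = 4.16e-05). All control values of this probe set lay under the limit, with means of 4.71 in LSEC, 6.73 in lung EC and 6.70 in thymus. These differences are therefore between dim levels. The probe set was tested because its thymus mean over both genotypes was 6.89, with Cre+ thymus at 7.08. The other probe set, 1426430_at, stayed between 8.20 and 8.49 in all groups. Dll1 had the narrowest range of the tested Delta-like probe sets, 8.54 to 9.11 on all arrays, and passed only as lower in control thymus than in control lung EC (-0.39, adjusted p = 0.00378).

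The receptors differed in their tissue order. Notch1 1418634_at was lowest in lung EC, with control means of 10.38 ± 0.12 in LSEC, 9.35 ± 0.14 in lung EC and 10.42 ± 0.05 in thymus. Control LSEC exceeded control lung EC by 1.03 and control thymus exceeded it by 1.07 (limma adjusted p = 5.94e-05 and 2.79e-05), while LSEC and thymus did not differ beyond their spread (0.04). Notch4 1449146_at was high in both endothelial samples and dim in thymus, with control means of 9.17 ± 0.24 in LSEC, 9.24 ± 0.52 in lung EC and 5.29 ± 0.43 in thymus. Control thymus differed by -3.87 relative to control LSEC and by -3.95 relative to control lung EC (adjusted p = 1.01e-07 and 2.49e-07). On the dimmer, untested probe sets control thymus differed from control LSEC by -0.74 (1456263_at) and -0.57 (1436901_at). From control lung EC it differed by -0.29 and 0.35 on them.

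Of the targets, Hes1 was highest in lung EC and lowest in thymus, with control means of 8.23 ± 0.14 in LSEC, 8.89 ± 0.13 in lung EC and 7.20 ± 0.02 in thymus, and all 3 differences passed (limma adjusted p = 0.000812, 9.18e-06 and 4.23e-07). Hey1 had control means of 8.33 ± 0.17, 8.42 ± 0.03 and 8.55 ± 0.06 in LSEC, lung EC and thymus, with no difference that passed. Mfng had control means of 7.73 ± 0.16, 7.89 ± 0.08 and 7.94 ± 0.04 in the same order, again with none that passed. Lfng 1420643_at was lower in control LSEC than in control lung EC (-0.45, limma adjusted p = 0.0393) and 0.70 higher in control thymus than in control LSEC (adjusted p = 0.00217). The first of these calls was lost in 5 of 12 alternative settings (adjusted p up to 0.252): with no filter (0.0785), without lung EC control replicate 1 or 2 (0.0573 and 0.252) and without LSEC control replicate 1 or 2 (0.0909 and 0.106).

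Other genes listed for the pathway were read by their brightest probe set, 58 tested of 69 listed. In LSEC 3 were higher and 1 lower with MxCre, 6.90% of the 58 against 5.23% of all probe sets. None passed in lung EC or thymus by limma, where 3 and 11 of the 58 (5.17% and 19.0%) had an unadjusted p under 0.05, against 4.73% and 11.5% of all. In LSEC the medians of the 58 and of all probe sets were -0.04 and 0.01. The nuclear complex list, which also held Sharpin, a gene outside this complex, gave 2 of 15, both higher. They were the corepressor gene Tle3 (0.44, limma adjusted p = 0.00581) and the deacetylase gene Hdac1 (0.30, adjusted p = 0.0312). The other targets gave 2 of 14, the cyclin gene Ccnd1 (higher by 0.91, adjusted p = 0.00214) and Snai2, a repressor of epithelial genes (-1.09, adjusted p = 0.00489). None of 4 other ligands and receptors, 18 genes of ligand and receptor handling or 7 genes of receptor cleavage passed in LSEC, with unadjusted p under 0.05 for 2, 1 and 1 of them.

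The receptor Notch2 differed by 0.17 in LSEC, 0.18 in lung EC and 0.46 in thymus, and Notch3 by -0.11, 0.07 and 0.53. Rbpj, the DNA-binding partner of the receptors, differed by -0.27, 0.16 and -0.03, and Nrarp, a feedback inhibitor that Notch induces, by -0.04, -0.18 and -0.24, with no limma call among these. Hey2 was not tested, being under the limit. Between controls, Notch2 was lower in LSEC (-1.67) and in thymus (-1.26) than in lung EC, and Nrarp was lower in thymus than in LSEC (-0.92) or lung EC (-0.72), all with a limma adjusted p under the threshold.

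For the members called in LSEC on their brightest probe set, the genes most alike were sought by Pearson's correlation over the 14 arrays after tissue means were taken off, among 13033 genes, as a description. The points share their arrays and their genotypes. Jag1 1434070_at was closest to Tnk2 (0.932), Serpinb9 (0.931) and Abhd17a (0.929), a tyrosine kinase, a granzyme inhibitor and a depalmitoylase gene. Mfng was closest to Gadd45a (0.975), Cars (0.964) and Cmas (0.964), a growth arrest gene, a cysteinyl-tRNA synthetase gene and a gene of sialic acid activation. Dll4 1421826_at, added after its values were seen, was closest to Npy (0.958), Grap (0.939) and Bmp2 (0.907), the genes of a neuropeptide, an adaptor protein and a growth factor, and Npy differed by -3.18 in lung EC.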

How the data were processed

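Per the labels' protocols, RNA was prepared with Trizol and an RNeasy kit, primed with oligo-dT and hybridised as biotin-labelled cRNA. The values the authors deposited, 1 for each probe set on each array, were read as log2, a base inferred from their range. How the authors corrected, summarized and normalized them is not given in the sources used here. Exact zeros numbered 223 to 312 on an array. Array medians of the deposited log2 values spread over 0.282, so all arrays were quantile normalized. This forces equal distributions and can shrink a shift shared by most genes.

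Symbols came from the annotation supplied for the array: of 45101 probe sets, 64 were controls, 34945 had 1 symbol, 932 several and 9160 none. Limma 3.58.1 in R 4.3.3 (lmFit, eBayes) fitted the 6 groups jointly, with 8 residual degrees of freedom. Probe sets at or over the 40th percentile in their brightest tissue were tested in 9 contrasts, with Benjamini-Hochberg adjustment over 27022 probe sets in each, at 0.05. The fit was tested on simulated data. No array depth exists, so the number of arrays limits the precision. Start regions came from RefSeq.

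Named were all member probe sets, the passing genes of 5 pathway lists, Notch2, Notch3, Rbpj, Hey2, Nrarp, the floxed genes, passing markers of the lists described other than the macrophage list, and the 3 genes most like each called member. The markers Stab2, Cdh5, Sftpc, Gja5 and, in lung EC, Sox18 were named after their values were seen. The members and lists were chosen with earlier results of these data known. Alternatives were the deposited values, median centring, no filter, a 60th percentile filter, the brightest probe set per gene, trend and robust eBayes, only the arrays compared, a replicate block, and fits without 1 array at a time.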

Additional observations from a re-analysis of the deposited data

Results flagged for a closer look

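The results below are listed because the genotype difference itself differed between tissues by limma's interaction test, adjusted over all probe sets. For Dll4 1421826_at the genotype difference was -0.94 in LSEC and -0.05 in thymus, and their difference was -0.90 (SE 0.19, adjusted p = 0.0462). For the same probe set it was -2.01 in lung EC and -0.05 in thymus, a difference of -1.96 (SE 0.21, adjusted p = 0.00994). Both rest on the same thymus arrays, with values of 6.63 to 6.93, around the limit of 6.87. Every LSEC value of this probe set lay under the limit. The other Dll4 probe set, 1421827_at, passed in neither comparison (limma adjusted p = 0.143 and 0.338). The first call was lost in 15 of 17 alternative settings (adjusted p up to 0.186) and the second in 5 of 16 (up to 0.273). For Snai2 1447643_x_at, a listed Notch target, it was -1.09 in LSEC and 1.06 in thymus, a difference of -2.14 (SE 0.28, adjusted p = 0.00582). Its thymus levels, 6.60 to 6.70 in Cre+ and 5.54 to 5.63 in control thymus, lay under the limit of 6.87, and the thymus difference alone did not pass (adjusted p = 0.0697).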

How the results depend on the processing

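Of 525 values of single probe sets under other settings, 475 stayed on their side of the threshold, 30 lost the call, and 20 gained it. Of these values 1 changed sign, 0 of them called: Lfng 1420643_at, control thymus against control lung EC, was 0.25 and became -0.01 without thymus control replicate 1 (limma adjusted p = 0.95). The LSEC calls of Jag1 (both), Mfng and Dll4 1421826_at were kept in every setting that included these probe sets; by construction, the brightest probe set per gene leaves out Dll4 1421826_at and Jag1 1421106_at, and the 60th percentile filter leaves out Mfng. The lists below give counts of called members, then of all probe sets; the causes of the shifts were not tested, apart from settings that test fewer probe sets or samples. The 4 members called in LSEC became 2 with the brightest probe set, and the 1412 probe sets 790, against 809 with no filter, 495 with only the arrays compared and 600 with the replicate block; leaving out 1 array gave 924 to 1156. In lung EC the 1 member became 0 with the brightest probe set, only the arrays compared or the block, and the 9 probe sets 15 as deposited, 4 with no filter, 24 with the 60th percentile, 14 brightest, 31 with trend and robust, 2 with only the arrays compared and 0 with the block; leaving out 1 array gave 4 to 8. In thymus the 121 probe sets became 59, 72, 25, 54, 201, 6 and 7 as deposited, with median centring, no filter, brightest, trend and robust, only the arrays compared and the block, and 15 to 329 without 1 array. For LSEC minus lung EC the 0 members became 2 with the 60th percentile and 2 with trend and robust, and 0 to 1 without 1 array; the 88 probe sets became 13 with no filter, 150, 214, 32 and 0 with the 60th percentile, trend and robust, only the arrays compared and the block, and 9 to 131. For LSEC minus thymus the 1 member became 0 as deposited, with median centring, no filter, only the arrays compared and the block, and 0 to 1 without 1 array; with trend and robust on Dll4 lost its call too (adjusted p = 0.0509). The 446 probe sets became 118 with no filter, 714, 158 and 29 with trend and robust, only the arrays compared and the block, and 105 to 1016. For lung EC minus thymus the 1 member became 0 with the brightest probe set, only the arrays compared and the block, and 0 to 1 without 1 array (0 without lung EC control replicate 1 or thymus control replicate 1); the 6 probe sets became 10 with the 60th percentile, 27, 3 and 2 with trend and robust, only the arrays compared and the block, and 4 to 23. Between controls, the 8 members of LSEC against lung EC became 5 with the brightest probe set, and the 11713, 17853 and 16819 probe sets 6011, 8464 and 7889; leaving out 1 array gave 7782 to 10807 for LSEC against lung EC. Same-numbered replicates did not deviate together (correlation of deviations -0.24, -0.07 and -0.17 in LSEC, -0.21 in lung EC and 0.07 in thymus), so the numbers were not taken as pairs. With the block Dll4 1421826_at lost its call in lung EC (adjusted p = 0.0819) and for lung EC minus thymus (0.273). With the lung EC numbers crossed, an alternative chosen after seeing the data, the block called 0 members and 0 probe sets in lung EC, 5 probe sets for LSEC minus lung EC, and 0 members and 3 probe sets for lung EC minus thymus.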
